A study of Homo sapiens with 8 samples.

Results

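Integrins are cell surface receptors, each made of an alpha and a beta chain, that hold cells to the matrix or to other cells and pass signals from these contacts inward. Laminins are trimers of an alpha, a beta and a gamma chain that form the sheet of basement membranes, where they are bound by integrins. In melanoma, integrins are known for their part in growth out of the epidermis and in spread to other organs. The genes of both families were described here across tumours of SkMel147, an established human melanoma cell line, that carried Omomyc, an engineered fragment of MYC that takes up MYC's partners and DNA sites. The set holds the 33 genes whose symbol in the array's annotation is that of an integrin alpha chain, of an integrin beta chain from ITGB1 to ITGB8 or of a laminin chain, out of 17492 genes with a symbol. Each had 1 row in the table, so no choice between rows was needed. They are 17 integrin alpha, 8 integrin beta and 8 laminin genes.

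All 8 were subcutaneous tumours of BALB/c nude mice, which lack mature T cells but keep other host cells. When tumours reached 100 mm3, 4 mice drank water with doxycycline, meant to switch on Omomyc in the tumour cells, and the other 4 drank the vehicle, and tumours were taken after 7 days. The promoter that drives Omomyc and the age and sex of the mice are not given in the labels used here, and there was no group of tumours without the transgene, so doxycycline and Omomyc cannot be told apart. Each tumour gave 1 Affymetrix array, whose values are on a log2 scale. A difference of 1 on that scale is a 2-fold difference. With 4 arrays per group, their number limits the precision.

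The arrays had medians between 5.04 and 5.15. Vehicle replicate 2 and doxycycline replicate 4 stood apart, with lower quartiles of 3.21 and 3.24 against 3.05 to 3.13 in the other 6. Calls lost without this pair are therefore stated for the genes whose differences are given below. MYC, which the transgene overlaps in part, was at 5.92, 5.42, 5.92 and 5.26 in vehicle and at 5.49, 7.22, 7.74 and 6.78 in doxycycline replicates 1 to 4. Doxycycline replicate 1 was thus inside the range of the vehicle tumours and the other 3 were above it, and the groups differed by 1.18 ± 0.41 (SE), short of the threshold (limma adjusted p = 0.0987). No value here shows whether Omomyc was induced in that tumour. Among the genes below it was the highest array for LAMA2, LAMB2, LAMB1 and LAMC1, among others. It was the doxycycline array nearest to vehicle for ITGA2, which was called, and for ITGA5, ITGA4 and ITGAM, among others. Without it, the 4 called members still passed: ITGA10 at 2.29, LAMA2 at 1.02, LAMB2 at 0.81 and ITGA2 at -1.16, with limma adjusted p of 0.00110, 0.0257, 0.0440 and 0.0157. The labelled cell type was checked against 13 measured lineage markers. SOX10 averaged 6.53 in vehicle and 6.25 in doxycycline tumours, whereas the pigment cell genes TYR, MLANA and PMEL averaged 2.21, 2.93 and 3.26 in vehicle tumours, TYR and MLANA below the lowest of the arrays' lower quartiles (3.05). AXL and SOX9, the brightest markers of the list (7.83 and 7.23 in vehicle), did not pass, and NGFR rose (2.06 ± 0.53, SE; limma adjusted p = 0.0310). The summed level of the 13 markers was 9.23 to 9.70 in vehicle and 9.74 to 10.72 in doxycycline tumours and did not overlap. The brightest genes weigh most in that sum, so it does not show that the markers rose as a set. Of the 13, 1 was called (7.69%, beside 10.8% of all genes), 7 were above 0 and 6 below. Those below were SOX10, MLANA, S100A1, MITF, TYR and PMEL, at -0.27 to -0.07. The NGFR call was lost in 6 of the 8 fits that left out 1 array (limma adjusted p up to 0.0881). In whole tumours, fewer cells of a type and less RNA per cell cannot be told apart.

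The comparison asked which integrin and laminin genes differed between doxycycline and vehicle tumours. ITGA10, LAMA2 and LAMB2 rose and ITGA2 fell in doxycycline tumours, by 4.94-fold, 2.29-fold, 1.96-fold and 2.08-fold. ITGA10 and ITGA2 encode alpha chains of collagen receptors, and both pair with the beta chain of ITGB1. LAMA2 encodes the alpha chain of the laminins of muscle and nerve basement membranes, and LAMB2 a beta chain that can join it in 1 trimer. No other member passed limma's test with Benjamini-Hochberg adjustment over all 17492 genes at a threshold of 0.05. The 4 called members are 12.1% of 33, beside 10.8% of all genes (1884, or 1252 without vehicle replicate 3), so the share was near the background. By direction, 3 of 33 rose, beside 4.75% of all genes, and 1 of 33 fell, beside 6.03%. The median difference of the 33 genes was -0.0065, beside 0.04 for all genes. Without regard to the threshold, 7 members had groups that did not overlap, 5 with doxycycline above and 2 below, and 17.7% of all genes had such groups. At an unadjusted p under 0.05 there were 9 members, beside 23.9% of all genes.

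**Figure D1:**
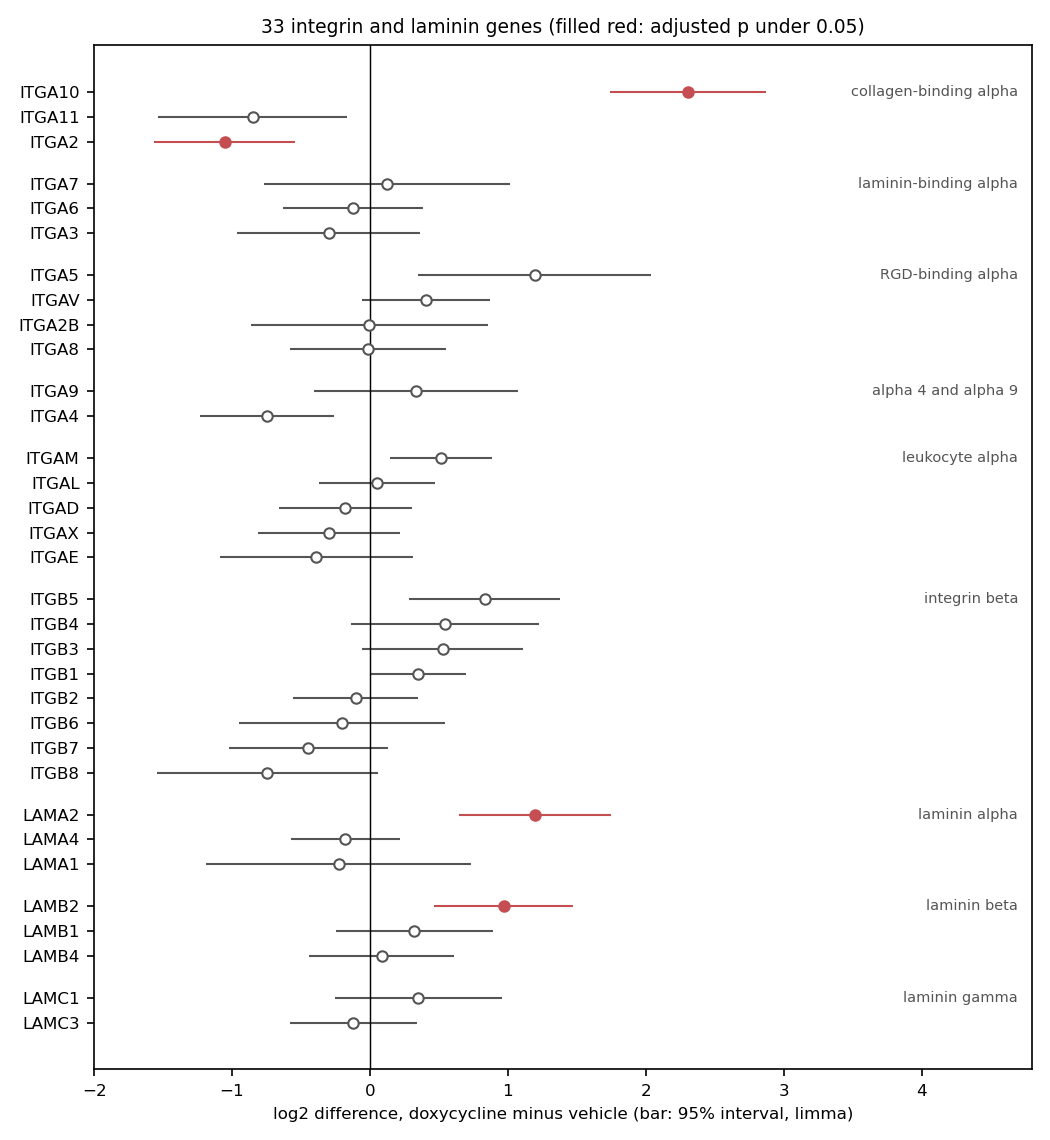
Log2 difference (doxycycline minus vehicle, horizontal axis) of each of the 33 genes, grouped by role, with limma's 95% interval over 4 and 4 arrays. ITGA10 at 2.31, LAMA2 at 1.20 and LAMB2 at 0.97 are the filled points on the right, and ITGA2 at -1.05 is the filled point on the left. The intervals of 24 of the other 29 genes include 0.

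Among the receptors for collagen, ITGA10 showed the greatest difference of any member. ITGA10 (gene ID 8515) was at 4.66, 3.75, 4.72 and 4.86 in vehicle replicates 1 to 4 and at 6.87, 6.64, 6.58 and 7.14 in doxycycline replicates 1 to 4. The lowest doxycycline array lay 1.72 above the highest vehicle array, and vehicle replicate 2 was the lowest of all. The means were 4.50 ± 0.50 and 6.81 ± 0.25 (SD, n = 4). The difference of 2.31 ± 0.26 (SE) passed with a limma adjusted p of 0.000317. It passed under all 18 alternatives to the analysis, at 1.95 to 2.51 (limma adjusted p from 4.33e-05 to 0.00155).

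ITGA2 (gene ID 3673), the alpha chain of the collagen receptor of platelets and epithelia, moved the other way. It was at 6.18, 6.65, 6.50 and 6.91 in vehicle and at 5.84, 5.29, 5.80 and 5.09 in doxycycline replicates 1 to 4. All 4 doxycycline arrays lay below all 4 vehicle arrays, with doxycycline replicate 4 the lowest and vehicle replicate 1 closest to the doxycycline range. The means were 6.56 ± 0.30 and 5.51 ± 0.37 (SD, n = 4), a difference of -1.05 ± 0.23 (SE; limma adjusted p = 0.0151). The call was lost when arrays were scaled to ribosomal protein genes (-0.85, limma adjusted p = 0.0516) and without the pair of arrays with shifted quartiles (-0.89, limma adjusted p = 0.0688). ITGA11, the third collagen-binding alpha chain measured, ranged from 2.24 to 3.47 in vehicle and from 1.81 to 2.74 in doxycycline tumours. Its groups overlapped through vehicle replicate 4, the low value. The difference of -0.85 (95% interval -1.53 to -0.17) did not pass (limma adjusted p = 0.114), but without that array it was -1.14 and passed (limma adjusted p = 0.0221).

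**Figure D2:**
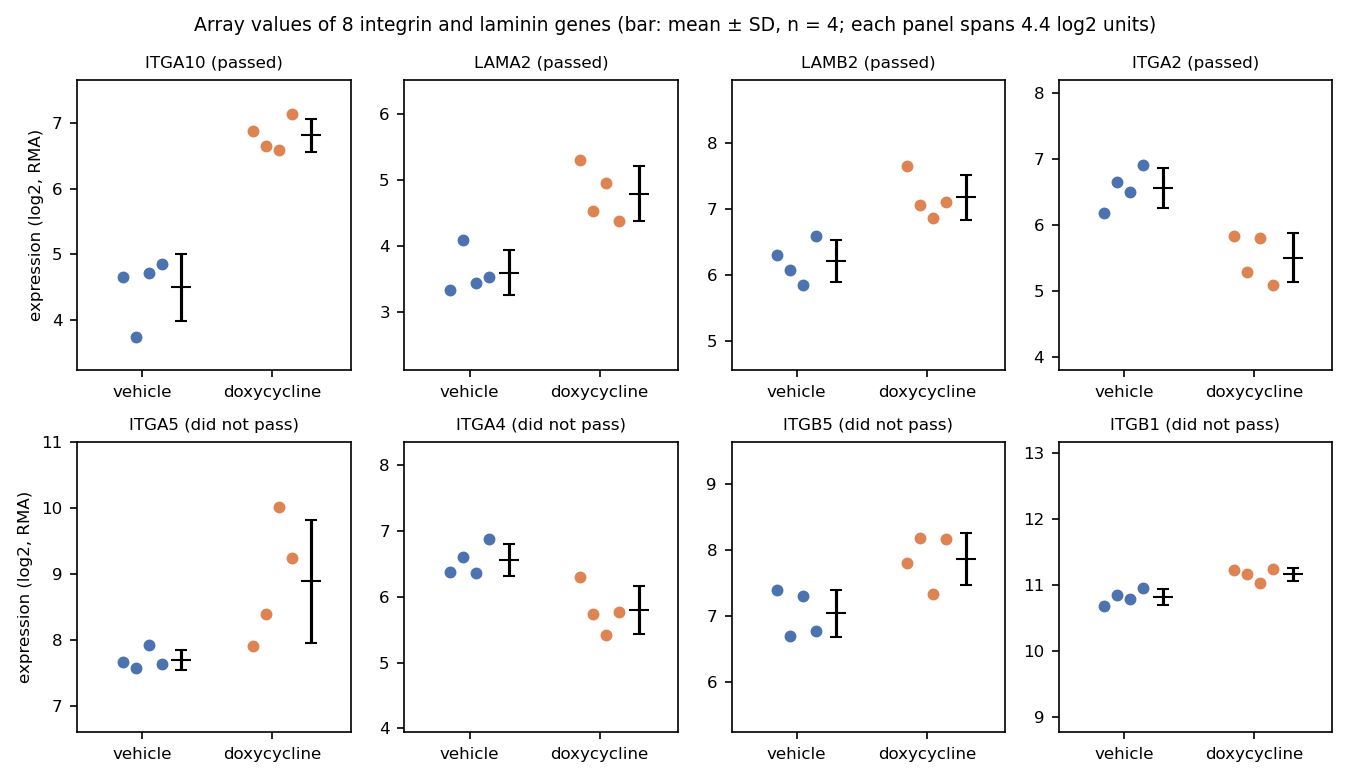
Expression (log2, vertical axis, every panel of equal span) in each of the 4 vehicle and 4 doxycycline arrays for the 4 genes that passed (top) and for ITGA5, ITGA4, ITGB5 and ITGB1, which did not pass (bottom), with the mean and SD beside the points. The groups do not overlap in the top row, and doxycycline replicates of ITGA5 spread from 7.91 to 10.02 around a narrow vehicle group.

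Of 3 laminin alpha chains, LAMA2 was the one that rose. LAMA2 (gene ID 3908) was at 3.33, 4.09, 3.44 and 3.53 in vehicle and at 5.30, 4.53, 4.96 and 4.39 in doxycycline replicates 1 to 4. The groups did not overlap, and vehicle replicate 2 and doxycycline replicate 4, the arrays with shifted quartiles, were the ones closest to each other. The means were 3.60 ± 0.34 and 4.79 ± 0.42 (SD, n = 4), and the difference was 1.20 ± 0.25 (SE; limma adjusted p = 0.0115). LAMA2 lies among the dimmest 40% of genes, where a change may be understated, and it was not tested with those genes left out. It passed under the other 17 alternatives, with limma adjusted p up to 0.0414. LAMA4, a chain of vessel and fat basement membranes, was at -0.18 (95% interval -0.57 to 0.22), and LAMA1, a chain of embryonic basement membranes, was at -0.23 (95% interval -1.19 to 0.73).

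Of 3 laminin beta chains, LAMB2 rose. LAMB2 (gene ID 3913), the beta chain of synaptic and kidney filter basement membranes, was at 6.30, 6.08, 5.85 and 6.59 in vehicle and at 7.66, 7.06, 6.86 and 7.10 in doxycycline replicates 1 to 4. The groups did not overlap, and doxycycline replicate 1 was the highest, as it was for LAMA2. The means were 6.20 ± 0.32 and 7.17 ± 0.34 (SD, n = 4), and the difference was 0.97 ± 0.23 (SE; limma adjusted p = 0.0205). The call was lost without vehicle replicate 3 (0.85, limma adjusted p = 0.0660) and without the pair of arrays with shifted quartiles (0.95, limma adjusted p = 0.0745). LAMB1, the beta chain of most other laminins, was at 8.02, 8.19, 8.06 and 8.48 in vehicle and at 9.21, 8.51, 8.39 and 7.94 in doxycycline replicates 1 to 4. Doxycycline replicate 1 was high and doxycycline replicate 4 was the lowest of all 8, so the groups overlapped. The difference of 0.32 (95% interval -0.25 to 0.89) did not pass (limma adjusted p = 0.507). LAMB4 was at 0.09 (95% interval -0.44 to 0.61).

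LAMC1, the gamma chain shared by most laminins, was at 8.95, 8.87, 9.08 and 9.55 in vehicle and at 10.15, 9.60, 8.89 and 9.22 in doxycycline replicates 1 to 4. Doxycycline replicate 1 was again the highest array, and doxycycline replicates 3 and 4 lay within the vehicle range. The difference was 0.35 (95% interval -0.26 to 0.96; limma adjusted p = 0.499). LAMC3 was at -0.12 (95% interval -0.58 to 0.34). The chains that LAMA2 and LAMB2 would join in a trimer with LAMC1 thus passed for 2 of 3, and the interval for LAMC1 includes both 0 and a difference near that of LAMB2.

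Fibroblasts and pericytes also express LAMA2 and LAMB2. Of 10 measured markers of these cells, 3 rose and none fell (30.0%, beside 10.8% of all genes), namely COL1A1 (1.25), PDGFRA (2.51) and COL1A2 (0.92), with limma adjusted p of 0.0150, 0.0158 and 0.0183. The calls of PDGFRA and COL1A2 were each lost in some of the 8 fits that left out 1 array, that of PDGFRA without vehicle replicate 1 (limma adjusted p = 0.0520) and that of COL1A2 without vehicle replicate 3 or doxycycline replicate 3 (limma adjusted p up to 0.0564), and both without the pair of arrays with shifted quartiles (limma adjusted p of 0.0735 and 0.0869). Without vehicle replicate 4 PDGFRA was at 3.10. The level of the markers, summed before the log2, was 9.46 to 10.19 in vehicle and 10.41 to 11.20 in doxycycline tumours and did not overlap. This was also so for the melanocyte lineage list and, barely, for the leukocyte list. PDGFRB was at 1.41 and THY1 at -1.05, and neither passed (limma adjusted p of 0.0584 and 0.0844). CSPG4 and ACTA2, markers of pericytes and contractile fibroblasts, were both at 0.12 and did not pass. FAP and LUM, the brightest of the list over both groups, averaged 8.48 and 6.96 in vehicle and 8.84 and 8.55 in doxycycline tumours and did not pass. Probes on this array match human transcripts, and RNA of mouse stroma is read by it only through cross-hybridisation. The part of these markers in the laminin values was not tested.

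The promoters of the 4 called genes are shown because the transgene encodes a MYC fragment that binds DNA and these genes changed in both directions. Each is the 250 bases before the start of the gene on its strand, from RefSeq (GRCh38.p14), at chr1:145910051-145910300 (minus strand) for ITGA10, chr5:52989102-52989351 (plus) for ITGA2, chr6:128882888-128883137 (plus) for LAMA2 and chr3:49133051-49133300 (minus) for LAMB2. Capitals mark GC boxes, the letters GGGCGG on either strand.
ITGA10: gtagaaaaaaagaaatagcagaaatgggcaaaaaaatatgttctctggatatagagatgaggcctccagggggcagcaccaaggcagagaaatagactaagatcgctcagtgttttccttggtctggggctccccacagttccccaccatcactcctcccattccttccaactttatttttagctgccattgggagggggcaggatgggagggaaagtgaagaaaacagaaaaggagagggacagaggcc
ITGA2: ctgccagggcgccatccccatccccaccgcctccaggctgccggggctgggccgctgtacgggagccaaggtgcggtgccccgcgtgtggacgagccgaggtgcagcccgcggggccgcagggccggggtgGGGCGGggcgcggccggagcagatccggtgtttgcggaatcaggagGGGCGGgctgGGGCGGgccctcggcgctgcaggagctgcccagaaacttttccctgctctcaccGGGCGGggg
LAMA2: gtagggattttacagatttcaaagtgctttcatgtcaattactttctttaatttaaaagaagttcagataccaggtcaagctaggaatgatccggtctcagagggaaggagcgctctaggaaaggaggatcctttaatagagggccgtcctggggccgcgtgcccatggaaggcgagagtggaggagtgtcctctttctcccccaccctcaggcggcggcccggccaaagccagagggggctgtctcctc
LAMB2: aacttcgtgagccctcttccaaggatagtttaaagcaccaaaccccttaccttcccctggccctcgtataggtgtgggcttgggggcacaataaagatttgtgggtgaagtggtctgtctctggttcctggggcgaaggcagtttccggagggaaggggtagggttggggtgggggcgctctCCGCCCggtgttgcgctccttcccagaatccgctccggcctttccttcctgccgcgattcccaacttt
The canonical E-box CACGTG, the site that MYC and MAX prefer, was in none of the 4 windows, and 7.73% of 27305 genes with such a window hold it. Of the 22 members in the promoter table, ITGA6 held it. The wider letters CANNTG, which include CACGTG, were in none of the 4 either, beside 66.7% of all genes and 11 of the 22 members. GC boxes, letters bound by factors of the SP1 family, occurred 4 times in ITGA2 and 1 time in LAMB2 and not in ITGA10 or LAMA2, beside 46.2% of all genes with at least 1. The share of G and C was 76.4% in ITGA2, 58.4% in LAMB2, 53.2% in LAMA2 and 48.4% in ITGA10, where the median gene had 58.0%. These are matches of letters in a short window, and none of them was read as a binding site.

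Of the receptors for fibronectin and other ligands with an RGD motif, none of the 4 alpha chains passed. ITGA5, the alpha chain of the main fibronectin receptor, was at 7.66, 7.58, 7.92 and 7.63 in vehicle and at 7.91, 8.40, 10.02 and 9.25 in doxycycline replicates 1 to 4. Doxycycline replicate 1 lay just under the highest vehicle array, and the other 3 lay above all of them, far apart from each other. The means were 7.70 ± 0.15 and 8.89 ± 0.93 (SD, n = 4). The difference of 1.19 ± 0.38 (SE; 95% interval 0.35 to 2.04) was close to that of LAMA2 but missed the threshold (limma adjusted p = 0.0762). It passed without doxycycline replicate 1, at 1.52 (limma adjusted p = 0.0184), without the dimmest 40% of genes (limma adjusted p = 0.0480) and after scaling to ribosomal protein genes, at 1.39 (limma adjusted p = 0.0375). ITGAV, the alpha chain of the vitronectin receptors, was at 0.41 (95% interval -0.06 to 0.87), with doxycycline arrays between 7.80 and 8.01 and vehicle arrays between 7.07 and 8.02. ITGA8 and ITGA2B, the latter a platelet chain, were at -0.01 and -0.0065, both among the dimmest 40% of genes.

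Of the alpha chains that bind laminin, none of 3 passed. ITGA3, ITGA6 and ITGA7 were at -0.30 (95% interval -0.96 to 0.37), -0.12 (95% interval -0.63 to 0.38) and 0.13 (95% interval -0.77 to 1.02). ITGA3 and ITGA6 lay between 7.82 and 9.09 on all 8 arrays, and in vehicle replicate 2 both were lower than in the other vehicle arrays. ITGA7 varied most of the 3, from 3.62 in doxycycline replicate 2 to 5.56 in doxycycline replicate 4. With 10.8% of all genes called, none of 3 is near the background share, so no contrast with LAMA2 and LAMB2 is read from it. For ITGA7 the interval includes a 2-fold difference.

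ITGA4, the alpha chain that binds VCAM1 and an alternative segment of fibronectin, was at 6.38, 6.60, 6.35 and 6.87 in vehicle and at 6.29, 5.73, 5.41 and 5.77 in doxycycline replicates 1 to 4. The groups did not overlap, although doxycycline replicate 1 lay just under vehicle replicate 3. The difference of -0.75 ± 0.22 (SE) had a limma adjusted p of 0.0543, just above the threshold. It passed without the dimmest genes, with a variance prior that is trended and robust, with weighted arrays and without doxycycline replicate 1 (limma adjusted p of 0.0290, 0.0386, 0.0337 and 0.0217). ITGA9, its nearest relative among the alpha chains, was at 0.33 (95% interval -0.40 to 1.07) and among the dimmest 40%.

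None of the 8 beta chains passed, and their smallest limma adjusted p was 0.0578, that of ITGB5. ITGB1, the partner of ITGA10, ITGA2, ITGA5 and most other alpha chains, was at 10.68, 10.85, 10.79 and 10.96 in vehicle and at 11.22, 11.16, 11.02 and 11.25 in doxycycline replicates 1 to 4. It varied least of all members within groups (SD 0.11), and its groups did not overlap. The difference of 0.35 (95% interval -0.0025 to 0.69) did not pass (limma adjusted p = 0.214), but it did with the trended and robust variance prior (limma adjusted p = 0.0361). So the shared beta chain spanned 10.68 to 11.25 over all 8 arrays, while ITGA10 rose and ITGA2 fell.

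ITGB5, a beta chain that pairs with ITGAV, was at 7.39, 6.69, 7.29 and 6.77 in vehicle and at 7.81, 8.17, 7.33 and 8.16 in doxycycline replicates 1 to 4. Doxycycline replicate 3 fell just inside the vehicle range and the other 3 lay above it. The difference was 0.83 (95% interval 0.28 to 1.38; limma adjusted p = 0.0578). ITGB5 passed under 5 alternatives, among them without doxycycline replicate 3 (1.01, limma adjusted p = 0.0304). ITGB3, the other beta chain of vitronectin receptors, was at 0.53 (95% interval -0.06 to 1.11). ITGB8, a partner of ITGAV in the release of TGF-beta, was at -0.74 (95% interval -1.54 to 0.055), with doxycycline replicate 4 at 7.05 and all other arrays at 7.87 or more. ITGB6, with that role in epithelia, was at -0.20, and ITGB4, the partner of ITGA6 in hemidesmosomes, at 0.54 (95% interval -0.14 to 1.22), both among the dimmest 40% of genes.

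**Figure D3:**
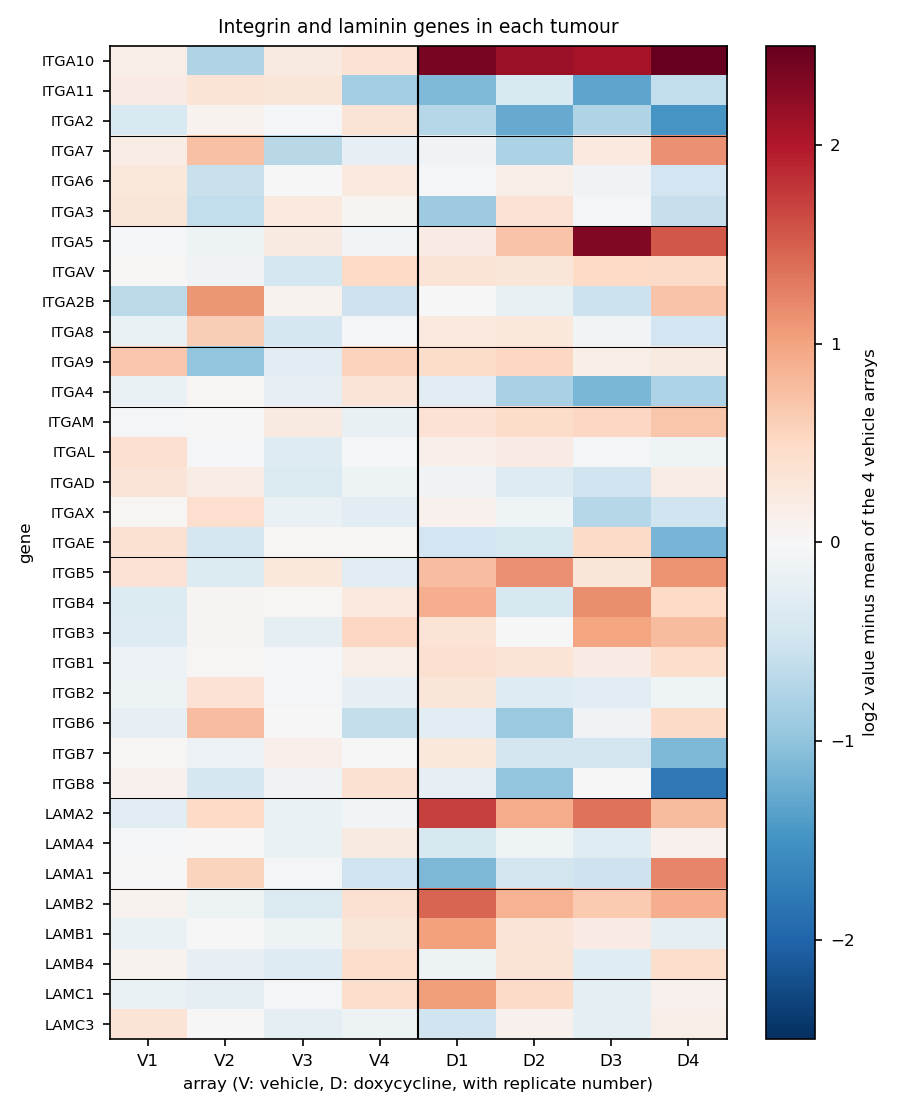
Each gene's log2 value minus the mean of its 4 vehicle arrays (colour, blue below 0 and red above) for the 8 arrays in columns, with genes ordered by role as in the plot of differences. ITGA10 is red in all 4 doxycycline arrays, LAMA2 and LAMB2 are red in all 4 with doxycycline replicate 1 the darkest, and ITGA5 is darkest in doxycycline replicates 3 and 4.

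Leukocyte integrins mark blood and immune cells, which in these tumours belong to the mouse. None of the 5 leukocyte alpha chains passed. ITGAM, the alpha chain of a myeloid complement receptor, was at 4.63, 4.64, 4.87 and 4.47 in vehicle and at 5.02, 5.12, 5.17 and 5.34 in doxycycline replicates 1 to 4. Its groups did not overlap, but the difference was small, 0.51 (95% interval 0.14 to 0.88), and did not pass (limma adjusted p = 0.0824). ITGAM passed after scaling to ribosomal protein genes (limma adjusted p = 0.0198) and without the dimmest genes (0.0375). Its beta chain partner ITGB2, among the dimmest 40%, was at -0.10 (95% interval -0.56 to 0.35), and ITGB7, a beta chain of gut lymphocytes, at -0.45 (95% interval -1.02 to 0.13). ITGAL, ITGAX, ITGAD and ITGAE ranged from -0.39 to 0.05. ITGAX and ITGAD are close relatives of ITGAM, so their probes may share sequence. Of 15 measured leukocyte markers, a list that includes ITGAM, LYZ rose (1.11, limma adjusted p = 0.0102) and none fell. That is 6.67% called, beside 10.8% of all genes. Without regard to the threshold, 11 were above 0 and 4 below. LYZ lies among the dimmest 40% of genes. CD14 was at 1.82 and did not pass (limma adjusted p = 0.0507). PTPRC, the marker of all leukocytes, averaged 2.38 in vehicle and 1.91 in doxycycline tumours, below the lowest of the arrays' lower quartiles (3.05). The summed level of the list was 8.67 to 9.068 in vehicle and 9.074 to 10.26 in doxycycline tumours, so the groups were barely apart. CD68 (8.15 and 8.98) and CD79A (5.25 and 5.74) were the brightest over both groups. CD68, which holds much of the sum, had groups that overlapped and did not pass (limma adjusted p = 0.128). RNA of mouse leukocytes, too, is read by this array only through cross-hybridisation. The part of these markers in the ITGAM value was not tested.

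None of the 10 endothelial, 8 keratinocyte and 6 platelet markers measured passed. Their summed levels were 8.08 to 8.38, 5.65 to 5.93 and 6.31 to 6.87 in vehicle tumours and 7.81 to 8.63, 5.84 to 6.32 and 6.30 to 6.55 in doxycycline tumours. The brightest over both groups were EGFL7 and TIE1 (6.22 and 6.20 in vehicle), KRT5 and SFN (3.68 and 2.91) and TREML1 and PF4 (4.88 and 4.71).

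The genes that act with these receptors were read in 3 lists, with 102 genes measured in all, of which 20 rose and 5 fell (24.5% called, beside 10.8% of all genes). The lists were chosen with earlier results of these data known. Without vehicle replicate 1, 16 partner genes were called in place of 25, and without vehicle replicate 3, 18. Their medians were 0.16 for the adaptors and kinases, 0.49 for the basement membrane genes and 0.26 for the ligands and membrane partners, beside 0.04 for all genes.

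**Figure D4:**
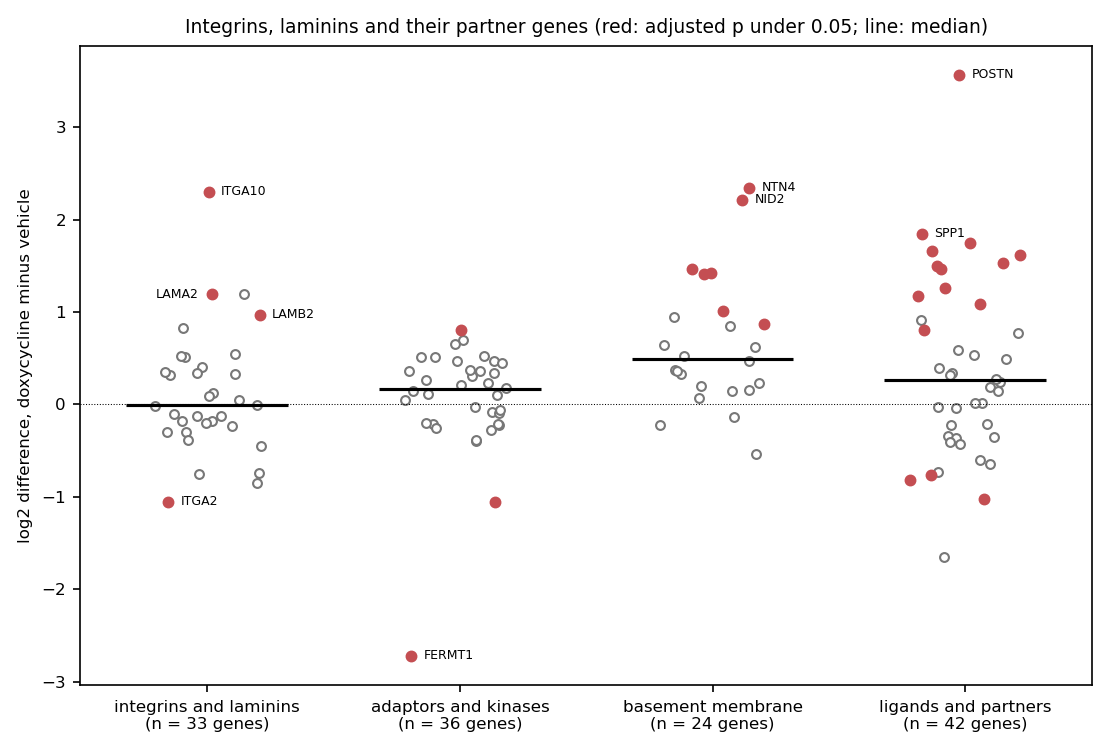
Log2 difference (doxycycline minus vehicle, vertical axis) of the 33 integrin and laminin genes and of the measured genes of the 3 partner lists, with genes that passed in red and the median of each list as a line. Of the 24 basement membrane genes 7 passed (29.2%, beside 10.8% of all genes), all above 0, and FERMT1 at -2.72 is the lowest point.

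Of 24 basement membrane genes, 7 rose and none fell, 29.2% of the list beside 10.8% of all genes, in a list chosen with earlier results known. NTN4, a netrin that binds laminin gamma chains, rose 5.09-fold (2.35 ± 0.36, SE), and NID2, which links laminin to collagen IV, rose 4.64-fold (2.21 ± 0.25, SE), with limma adjusted p of 0.00214 and 0.000330. SDC2, a heparan sulphate proteoglycan of the cell surface, rose by 1.46 ± 0.28 (SE; limma adjusted p = 0.00826), a call lost without the pair of arrays with shifted quartiles (0.0503). The other 4 were COL4A1, COL4A2, COL15A1 and AGRN, at 1.41, 1.02, 1.42 and 0.87, named after their values were seen. Of these, COL4A2 and AGRN lost their calls in 4 and 6 of the 8 fits that left out 1 array (limma adjusted p up to 0.0803 and 0.0699). So LAMA2 and LAMB2 rose beside COL4A1 and COL4A2, the chains of the collagen IV found in most basement membranes, and NID2. The other 4 collagen IV genes, COL4A3, COL4A4, COL4A5 and COL4A6, were at -0.22, 0.15, 0.23 and 0.16 and did not pass. NID1, the other nidogen, and HSPG2, perlecan, were at 0.52 and 0.85 and did not pass either.

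Of 42 ligands and membrane partners, 12 rose and 3 fell, 35.7% of the list beside 10.8% of all genes. This list, too, was chosen with earlier results known. POSTN, periostin, a ligand of ITGAV receptors, averaged 3.99 ± 1.63 without and 7.57 ± 1.30 with doxycycline (SD, n = 4). The groups overlapped, and the difference of 3.57 ± 0.79 (SE; limma adjusted p = 0.0157) lost its call without vehicle replicate 1 or vehicle replicate 3 (limma adjusted p up to 0.0538). Without 1 array its value ranged from 3.17 to 4.37, a shift of over 1.5 times in fold at the upper end, without vehicle replicate 4. SPP1, osteopontin, rose by 1.85 ± 0.43 (SE; limma adjusted p = 0.0188), a call lost when vehicle replicate 1 or 3, doxycycline replicate 3 or the pair with shifted quartiles was left out (up to 0.0626). EDIL3, which binds ITGAV receptors, rose by 1.75 ± 0.29 (SE; limma adjusted p = 0.00341). FN1, the ligand of the receptor of ITGA5, rose 2.83-fold, from 9.99 ± 0.18 to 11.49 ± 0.31 (SD, n = 4; limma adjusted p = 0.000853), and is named after its value was seen. TGFB1 and TGFB3, also named after their values were seen, rose by 1.66 and 1.46 (limma adjusted p of 0.000219 and 0.0297). TGFB3, among the dimmest 40% of genes, kept its call in 4 of the 8 fits that left out 1 array. LRRC32, a carrier of latent TGF-beta, EMP2, a membrane protein that associates with integrins, and ADAM15, a membrane metalloprotease, fell by 1.03, 0.76 and 0.82. Of these, LRRC32 kept its call in all 8 fits that left out 1 array, and EMP2 and ADAM15 kept theirs in 2 each (limma adjusted p up to 0.0792 and 0.0953). EMP2 and ADAM15 also lost theirs without the pair of arrays with shifted quartiles. LRRC32 and SPP1 lie among the dimmest 40% of genes and were not tested with those genes left out.

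Of 36 cytoplasmic adaptors and kinases, 1 rose and 2 fell, 8.33% of the list beside 10.8% of all genes. FERMT1, kindlin 1, which binds beta chain tails and activates integrins, averaged 5.76 ± 0.62 without and 3.04 ± 0.69 with doxycycline (SD, n = 4). It fell by 2.72 ± 0.38 on the log2 scale (SE; limma adjusted p = 0.00114) and passed under all alternatives run. PARVB, a parvin that joins integrin-linked kinase to actin, fell by 1.06 ± 0.22 (SE; limma adjusted p = 0.0111), a call lost without the pair of arrays with shifted quartiles (0.0515). KANK2, which binds talin at the rim of adhesions, rose by 0.80 ± 0.17 (SE; limma adjusted p = 0.0125), a call lost with the replicate block (limma adjusted p = 0.0556). FERMT2, the kindlin of most cells, was at -0.40 and did not pass (limma adjusted p = 0.228).

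Scaling bears on how many members were called. Scaling each array to its ribosomal protein genes moved the median over all genes from 0.04 to 0.24 and the calls from 830 higher and 1054 lower to 1731 and 759. There ITGA5, ITGAM and ITGB5 passed upward with ITGA10, LAMA2 and LAMB2, and no member passed downward. ITGA10, LAMA2 and LAMB2 were above 0 and ITGA2 below 0 under all 3 scaling alternatives.

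**Figure D5:**
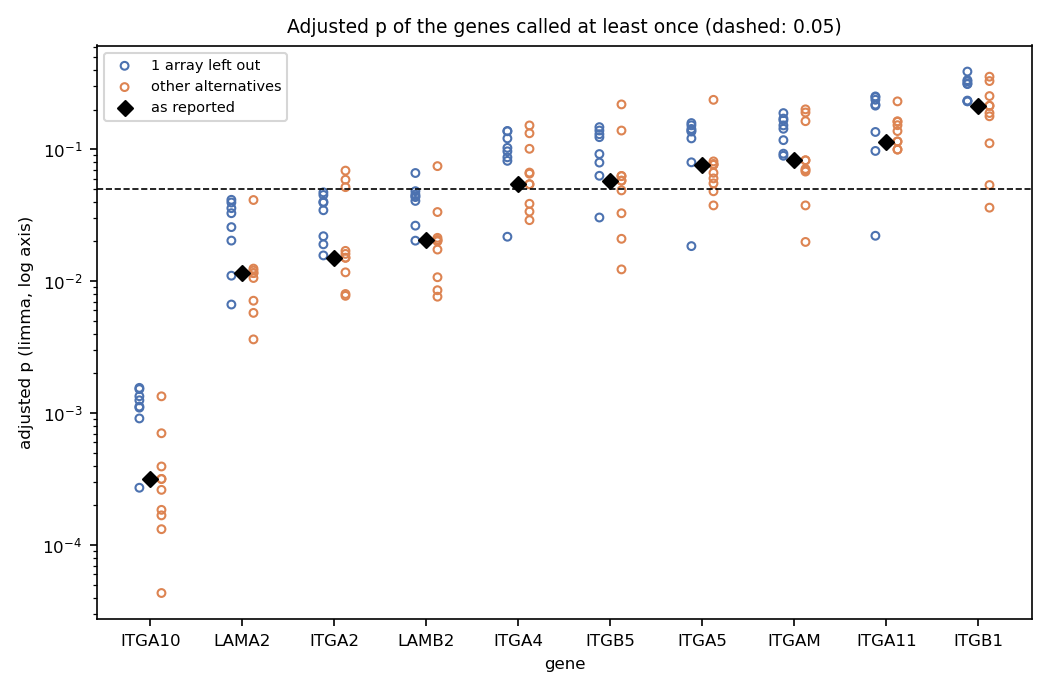
Limma adjusted p (vertical log axis) of the 10 members that passed in at least 1 analysis, as reported (diamond), with 1 array left out (left circles) and under the other alternatives (right circles), with the threshold of 0.05 dashed. ITGA10 is no higher than 0.00155 throughout, and the circles of ITGA4, ITGB5 and ITGA5 lie on both sides of the line.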

How the data were processed

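Total RNA of 8 tumours was hybridised to 1 Affymetrix array each, per the labels. The authors deposited log2 values from RMA, per the submitters' processing notes, with no version, probe definition or filter stated in the labels. RMA corrects background, quantile-normalises probes and summarises each row, so a shift of most genes in 1 direction would be partly removed. Of 18569 rows, 17511 had 1 symbol, none had several and 1058 had none. For 17 genes with more than 1 row the brightest was kept. All 33 members matched RefSeq gene IDs and symbols. Groups came from the titles. Doxycycline minus vehicle was tested with limma 3.58.1 (lmFit, eBayes) in R 4.3.3. Tests were two-sided, p-values were adjusted over all genes by Benjamini-Hochberg, and no filter was used. No count of reads exists, and signal over background is unknown. The procedure was tested on simulated data. Nothing in the labels says whether mice were randomised. The p-values set each difference against the spread between tumours, which eBayes draws toward that of all genes.

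The members, the 3 partner lists and the 6 marker lists were chosen with earlier results of these data known. The rule for named genes took all members, those called with every array's value, then members not called with a difference of at least 1 and those that share a receptor or trimer with a called member; from each partner list the 3 largest called rises and falls; and from each marker list the 2 brightest. The other partner and marker genes in the text, such as FN1, NID1, HSPG2, FERMT2, PDGFRB and THY1, lie outside it and were picked with their values in view; array values of ITGA4, ITGB5 and ITGAM are given because they were nearest to the threshold. Alternatives were quantile normalization on top, centring on array medians or on 68 ribosomal protein genes, dropping the dimmest 40% of genes, an eBayes prior with trend and robust options, weighting of arrays, a block for the replicate number, the mean of a gene's rows, a 1.5-fold minimum and dropping each array in turn. The fit without both vehicle replicate 2 and doxycycline replicate 4 was added after seeing the data. Promoter windows and figures were handled in Python 3.11.15.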

Additional observations from a re-analysis of the deposited data

Results flagged for a closer look

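Among the 66 groups of 4 arrays (33 genes in vehicle and in doxycycline tumours), 1 held an array whose gap to the nearest of the others was above Dixon's critical value. This was ITGA11, the collagen-binding alpha chain, in vehicle replicate 4, at 2.24 where the other vehicle arrays lay between 3.33 and 3.47, a gap of 0.888 of the group's range. Chance alone flags about 1 in 20 such groups.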

How the results depend on the processing

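Against 3 members called higher and 1 lower, there were 6 and 0 after ribosomal scaling, 5 and 2 without the dimmest 40% of genes, 5 and 2 under the trended and robust prior, 3 and 2 with weighted arrays, 3 and 0 with a replicate block, and 2 and 0 without the pair of arrays with shifted quartiles. The calls among all genes moved too. In the same order they were 2490, 2238 (of 10496 genes tested), 2298, 2230, 1293 and 1495, against 1884. The median difference of the members, -0.0065, was 0.19, 0.22 and 0.065 with ribosomal scaling, without the dimmest genes and with weighted arrays. The median of all genes, 0.041, was 0.24, 0.048 and 0.038 in these fits. With 1 array left out, 2 to 4 members were higher and 1 or 2 lower, their median lay between -0.11 and 0.076, 1252 to 1760 of all genes were called against 1884, and 16 to 23 partner genes against 25. Without the dimmest genes 20 of 33 members remained to be tested. No called member changed direction under any alternative run. No sign was seen that the replicate numbers pair the tumours. Deviations of same-numbered arrays correlated at -0.16 to 0.03 across genes and those of other pairs at -0.09 to 0.23. None of the 4 vehicle arrays correlated best with its own number. The value of 0.23 was that of vehicle replicate 2 with doxycycline replicate 4, the arrays with shifted quartiles. So few arrays cannot exclude a pairing. With the replicate block 1293 genes passed, and of the 4 called members ITGA2 did not pass (limma adjusted p = 0.0588). Nor did the partner genes KANK2, AGRN and EMP2 (limma adjusted p of 0.0556, 0.0539 and 0.0744) or the partner gene JAM2. With ribosomal scaling the share of calls that fell went from 55.9% to 30.5%. The causes were not tested. The number of arrays and the unknown signal over background limit what can be read for the 13 members among the dimmest 40%.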
